A study of Rattus norvegicus with 8 samples.

Results

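Aquaporins are membrane channels that let water, and in some members glycerol and other small solutes, cross a cell membrane along an osmotic gradient. The family falls into water channels (Aqp1, Aqp2, Aqp4, Aqp5, Aqp6 and Aqp8 here), aquaglyceroporins that also pass glycerol (Aqp3, Aqp7 and Aqp9) and the more distant Aqp11, which sits in the endoplasmic reticulum. In the ovary, water moves into the antrum as a follicle fills with fluid, and Aqp7, Aqp8 and Aqp9 have been described in rat granulosa cells. Members were matched by gene name, and the family was picked for description with earlier results of these data known. It holds 10 aquaporin genes, measured by 12 probes, among 26204 names that the array gives to its non-control probes.

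Ovary RNA was hybridised to 8 one-colour Agilent rat arrays, 4 labelled PMSG and 4 labelled control. PMSG, pregnant mare serum gonadotropin, is a hormone preparation that acts like follicle-stimulating hormone. According to the protocols, female rats aged 26 days were given either 50 IU of it in 0.2 ml of buffered albumin or the buffer alone under the skin, and ovaries were collected 48 h later, at 28 days of age. The treatment label of the controls names the buffer, while their titles call them untreated. No strain is named, and nothing says whether the 4 samples of a group came from separate animals, so p-values measure the spread between these samples, which may be partly technical.

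A level here is the log2 signal of a probe minus the 75th percentile of log2 signals on the same array, so 0 is the signal that 25% of probes exceed. The array's 75th percentile lay between 768.9 and 1103 signal units, and between 80.8% and 84.6% of probes were well above background, the scanner software's call for a spot brighter than its surroundings. Markers of the ovary were present: 8 of 8 oocyte markers, 7 of 7 granulosa markers on the array and 5 of 5 theca markers were tested, none of them below background everywhere. Genes that gonadotropin is known to raise were lower under the PMSG label. The log2 differences, PMSG minus control, were -2.75 for Star, -3.36 for Cyp11a1 and -1.93 for Lhcgr. Amh, which is known to decline as follicles mature, had a difference of 3.03. For these genes limma adjusted p ran from 2.32e-04 (Cyp11a1) to 0.00541 (Star). Directions are therefore given strictly by label. Whether the 2 labels were exchanged was not tested; an exchange would turn the sign of every difference below and leave its size, so that the increases of Aqp4, Aqp5 and Aqp11 would be decreases and the decreases of Aqp2, Aqp3, Aqp8 and Aqp9 increases.

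The probes are what was measured, and their sequences are shown for the members on which the results turn. Each probe has 60 bases, printed here 5′ to 3′ as the array files give them. The first 30 bases are shown, except that 1 Aqp4 probe is whole because it ends in a stop codon, in capitals, of a frame open up to that point.

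Aqp2 probe: ggactgtcattcccgctttggccttcttct
Aqp3 probe: tgatcctcaactaggggctgtgtatgtaat
Aqp5 probe: agaatgtctgccacagctcagacctcagag
Aqp9 probe: ggtgattgctaagaattttgaaacttgacc
Aqp4 probe at transcript position 986: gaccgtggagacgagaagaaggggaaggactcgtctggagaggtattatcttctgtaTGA
Aqp4 probe at transcript position 1609: attcactataatccttcttccccctcagca
Aqp4 probe at transcript position 4840: atcacccagatcacgataaacctgcaactt

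No run longer than 9 bases was shared between probes of different aquaporins (the longest, between Aqp5 and Aqp9), so a probe has little sequence in common with another member's. Positions are on the build rn4 named in the file headers. Whether a probe lies in coding or untranslated sequence was not assigned from an annotation, which was not used here.

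All 10 aquaporins were bright enough to be tested, and 7 of them differed between the labels. Aqp4, Aqp5 and Aqp11 were higher in arrays labelled PMSG, by 4.29-fold, 4.77-fold and 2.19-fold. Aqp3, Aqp9, Aqp2 and Aqp8 were lower, by 3.55-fold, 2.22-fold, 1.71-fold and 1.57-fold; Aqp3 was well above background on 3 of 4 PMSG-labelled arrays, and its decrease is 3.32-fold with each of these arrays taken at no less than its dimmest probe above background. Aqp1, Aqp6 and Aqp7 did not pass the threshold, an adjusted p under 0.05 over all tested probes. So both directions occurred within the water channels, while among the aquaglyceroporins Aqp3 and Aqp9 were lower and Aqp7 had a positive difference that did not pass.

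These counts stand beside a background in which many probes differed. Of 25303 probes tested with limma, 34.2% passed in either direction, 17.6% higher and 16.6% lower in arrays labelled PMSG. For the aquaporins the share was 70.0%, with 3 genes higher and 4 lower. In 7 of 10 aquaporins the 4 values of one label did not overlap the 4 of the other, where 36.6% of all tested probes showed such a separation. A difference that passed and was at least 2-fold was found for 5 aquaporins and for 11.8% of all tested probes. The median absolute log2 difference was 1.14 over the 10 genes and 0.39 over all tested probes. The median signed difference of all tested probes was 0.11, so small differences are to be read against that shift. In bulk ovary RNA, fewer cells of a type and less RNA per cell cannot be told apart.

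**Figure D1:**
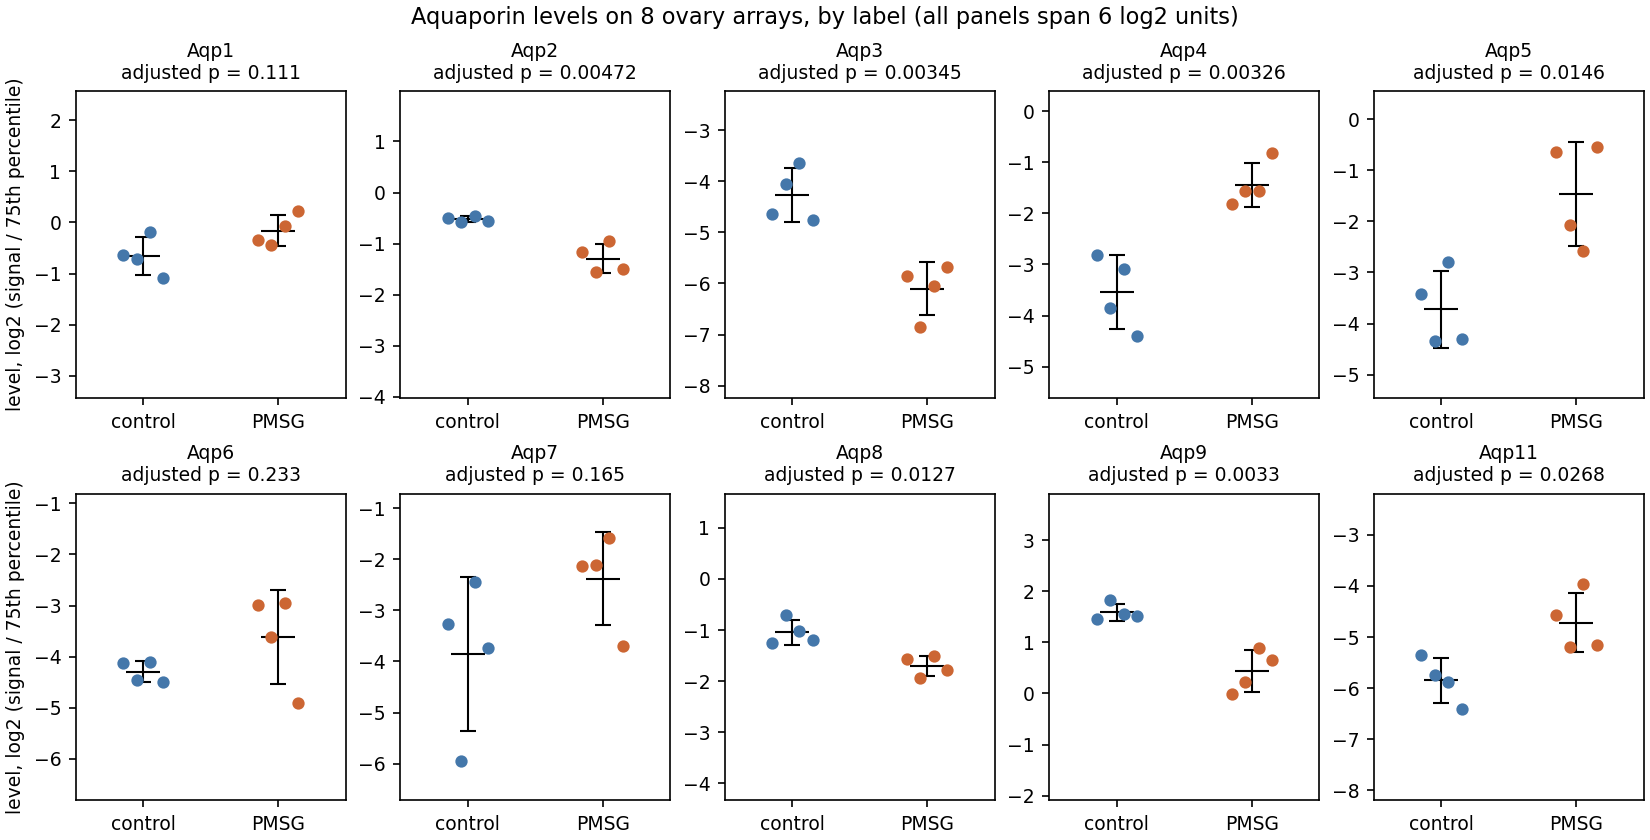
Level of each aquaporin (log2 signal relative to the array's 75th percentile) on the 4 arrays of each label, points for arrays, black bars for mean and SD, brightest probe per gene. Points of the 2 labels do not overlap for Aqp2, Aqp3, Aqp4, Aqp5, Aqp8, Aqp9 and Aqp11, and they do for Aqp1, Aqp6 and Aqp7.

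Aqp9, a broad channel for water, glycerol and urea best known from liver, was lower in arrays labelled PMSG. Under the control label it stood at 1.45, 1.83, 1.56 and 1.51 (arrays 1 to 4, in order, here and throughout), and under PMSG at -0.0062, 0.22, 0.88 and 0.65. Every control-labelled array was above every PMSG-labelled one. The log2 difference was -1.15 (SE 0.20, 95% interval -1.62 to -0.69, limma adjusted p = 0.00330), from a probe on chromosome 8 at 75611562 to 75611621. Spots of this probe differed little within an array, with a median SD of 0.018 on the log2 scale.

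Aqp9 is also made by leukocytes, so that marker list was read beside it. Of 10 leukocyte and macrophage markers tested, 4 rose and 0 fell in arrays labelled PMSG, and their summed signal ran from 9.0 to 10.7 times the 75th percentile under control and from 13.0 to 14.7 under PMSG. Among all tested probes 17.6% rose and 16.6% fell. Under quantile normalization 5 of the markers rose and 1 fell, and under median centring 3 rose and 1 fell. S100a9, abundant in neutrophils, had a log2 difference of -1.15 that did not pass (limma adjusted p = 0.0741). What part of the Aqp9 difference belongs to leukocytes was not tested.

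Aqp3, a water and glycerol channel of epithelial basolateral membranes, showed the largest decrease, a rank that changed under normexp background correction. Its levels were -4.64, -4.06, -3.63 and -4.76 on control-labelled arrays and -5.86, -6.84, -6.04 and -5.67 on PMSG-labelled arrays. The groups did not overlap, and the lowest value, on PMSG array 2, was below background. That array had 40.0% of its Aqp3 spots well above background and PMSG array 3 had 70.0%, against 100% on the other 6. The log2 difference was -1.83 (SE 0.32, 95% interval -2.58 to -1.08, limma adjusted p = 0.00345). With each PMSG-labelled array taken at no less than its dimmest probe well above background, the decrease was 3.32-fold. The probe lies on chromosome 5 at 58501847 to 58501906, minus strand, and was printed in 10 spots per array. Under normexp background correction with an offset of 50 the difference was -0.50 and still passed. It was then smaller than the decreases of Aqp8 (-0.57), Aqp2 (-0.68) and Aqp9 (-1.12). From the deposited table the Aqp3 difference was -1.53.

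Aqp7, the glycerol channel of adipocytes, had the widest spread of the 10 aquaporins between control-labelled arrays. It stood at -3.27, -5.96, -2.45 and -3.74 under control and at -2.14, -2.11, -1.58 and -3.69 under PMSG. The groups overlapped through PMSG array 4, which was below 2 of the control-labelled arrays. The difference of 1.47 (SE 0.76, 95% interval -0.27 to 3.21) did not pass (limma adjusted p = 0.165; chromosome 5, 58433937 to 58433996). Without control array 2 it was 0.77 (limma adjusted p = 0.313), and under normexp 0.90 (0.102). The interval runs from a small decrease to a large increase, so these arrays cannot show whether Aqp7 was higher.

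Adipocyte markers varied across the same arrays. Their summed signal over 8 genes was 36.1, 10.1, 84.3 and 31.8 times the 75th percentile on control-labelled arrays 1 to 4 and 50.2, 62.5, 93.8 and 29.2 on PMSG-labelled arrays 1 to 4. Control array 2 was lowest and PMSG array 3 highest for both Aqp7 and this sum. PMSG array 4 was the lowest of its label in both. Of the 8 markers, all well above background on every array, 1 rose and 0 fell between the labels. Among all tested probes 17.6% rose and 16.6% fell. The part of adipocytes in the Aqp7 values was not tested.

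Glycerol handling is the metabolism that aquaglyceroporins serve. Of 13 listed genes 12 were tested, with 0 higher and 1 lower in arrays labelled PMSG, where 34.2% of all tested probes passed in either direction. The median log2 difference of the list was -0.19, against 0.11 over all tested probes. Agpat2, an enzyme of phosphatidic acid synthesis from glycerol phosphate, fell by 0.82 (limma adjusted p = 0.0408), a call lost with the replicate block (0.0787), with slide row as a block (0.0591), with no filter on dim probes (0.0524) and without control array 1, 3 or 4 or PMSG array 1 or 3 (0.0535 to 0.0970). Quantile normalization called 3 of the list lower and median centring called 4.

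Among the water channels, Aqp5 had the largest increase of all 10 aquaporins. It serves fluid secretion in salivary, tear and airway glands. Levels were -3.42, -4.35, -2.79 and -4.31 under control and -0.64, -2.08, -2.58 and -0.55 under PMSG. The groups were separated by a narrow gap, between control array 3 and PMSG array 3, and PMSG arrays 1 and 4 were far above arrays 2 and 3. The log2 difference was 2.25 (SE 0.55, 95% interval 0.99 to 3.52, limma adjusted p = 0.0146; chromosome 7, 138340966 to 138341024).

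Aqp4, the main water channel of astrocyte end feet and also of skeletal muscle membranes, has 3 probes, and they differed in size of effect. The brightest, at transcript position 4840 (chromosome 18, 6626431 to 6626490), stood at -2.82, -3.84, -3.10 and -4.40 under control. Under PMSG it stood at -1.83, -1.55, -1.56 and -0.82, above every control-labelled array. Its difference was 2.10 (SE 0.37, 95% interval 1.25 to 2.95, limma adjusted p = 0.00326).

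The Aqp4 probe at position 986 rose by 1.31 (SE 0.21, limma adjusted p = 0.00196). Its levels lay between -7.02 and -6.22 under control and between -5.49 and -4.99 under PMSG. It was well above background on 2 of 4 control-labelled arrays; with these taken at no less than their dimmest probe above background, the increase was 2.19-fold. Under normexp the difference was 0.40 (limma adjusted p = 0.0166). The probe at position 1609 stood at -3.35, -3.57, -3.53 and -3.63 under control and at -2.67, -3.04, -2.64 and -3.82 under PMSG. It did not pass (difference 0.48, SE 0.25, limma adjusted p = 0.175), and PMSG array 4 lay below all control-labelled arrays while the other 3 lay above them. Without PMSG array 4 it passed, with a difference of 0.74 (limma adjusted p = 0.00483).

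Whether the probes differed from each other was tested within arrays, after their values had been seen. The increase at position 4840 exceeded that at 1609 by 1.62 (exact two-sided permutation test over arrays, p = 0.0286, the smallest that 4 against 4 arrays allow). After adjustment over the 3 pairs of probes this was 0.0857, the value that a single pair at the smallest p must take, so that this pair alone could not pass. The exact p was 0.200 for positions 4840 and 986 and 0.0571 for 1609 and 986. The 3 probes carry the same accession in the array files, and transcript variants of Aqp4 were not told apart.

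**Figure D2:**
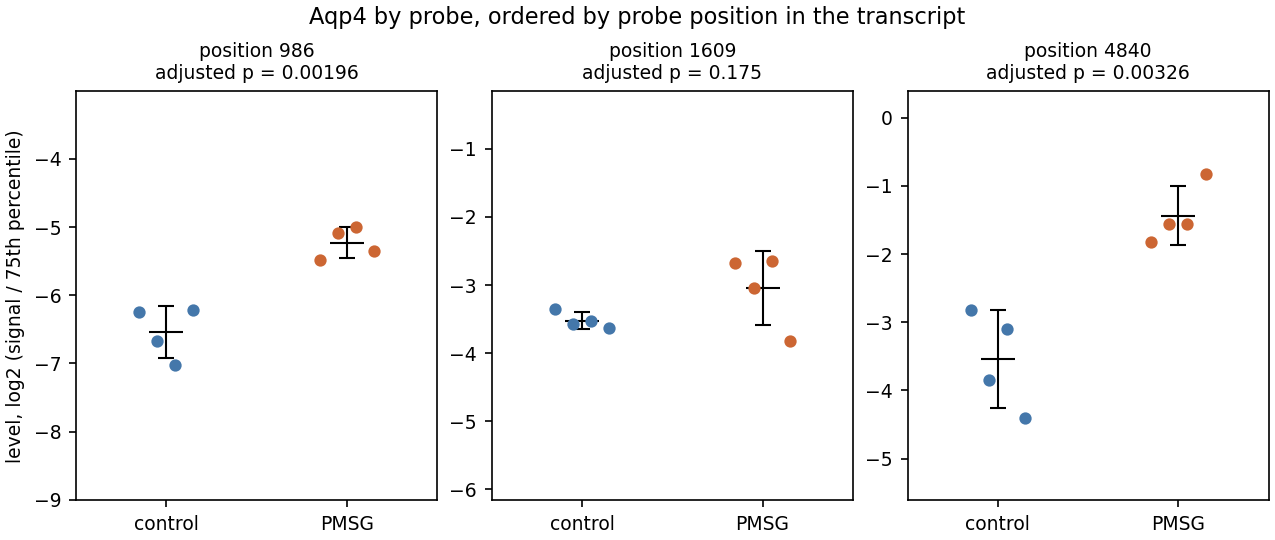
Level of the 3 Aqp4 probes (log2 signal relative to the array's 75th percentile), by probe position in the transcript, with points for arrays and bars for mean and SD. Labels separate at positions 986 and 4840 and overlap at 1609, where PMSG array 4 is the lowest of the 8.

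Marker lists of several cell types were read beside Aqp4 and Aqp5. Of 9 oviduct and surface epithelium markers 6 rose and 0 fell, and their summed signal was 13.7, 12.3, 15.6 and 11.03 under control and 15.8, 20.2, 24.5 and 28.6 under PMSG. Krt7 had the highest mean level of the 9 under control, 2.59, so it weighs most in the sum there. Its difference of -0.11 did not pass (limma adjusted p = 0.712). PMSG array 4 had the highest sum and the highest levels of Aqp4 at position 4840 and of Aqp5. PMSG array 1, nearly as high for Aqp5, had the lowest sum of its label. Striated muscle markers, relevant to Aqp4, went both ways, with 3 of 8 higher and 1 lower. For these lists and the next, the shares over all tested probes were 17.6% higher and 16.6% lower. All 8 oocyte markers rose. Their summed signal was 3.3, 6.0, 4.8 and 4.4 under control and 25.3, 21.2, 18.2 and 11.8 under PMSG. PMSG array 4, highest for Aqp4 at position 4840 and for Aqp5, thus had the lowest oocyte sum of its label. The part of these cells in the Aqp4 and Aqp5 differences was not tested.

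**Figure D3:**
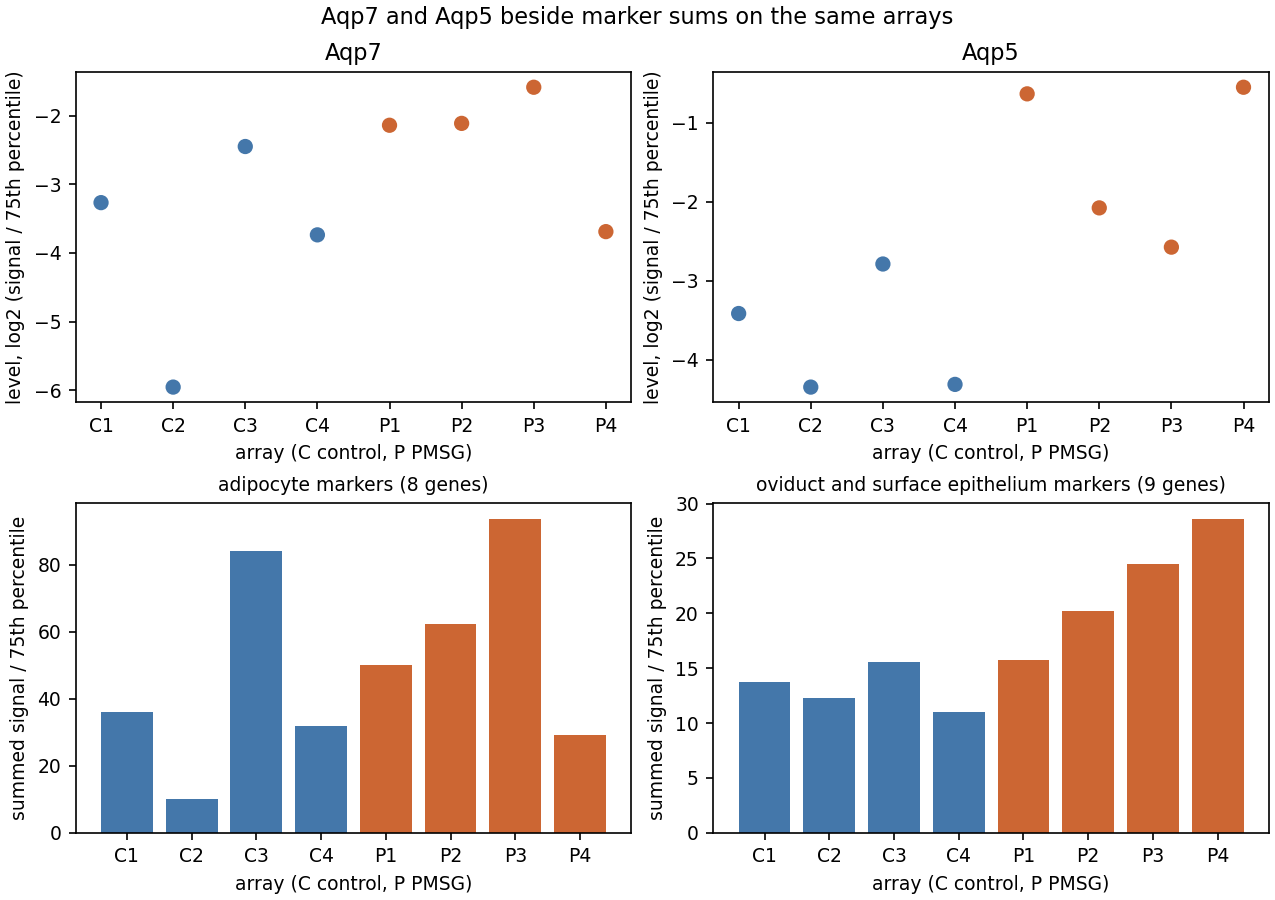
Upper panels show Aqp7 and Aqp5 levels (log2 signal relative to the 75th percentile) on each array, and lower panels show summed signals of 8 adipocyte and 9 oviduct and surface epithelium markers, in multiples of the 75th percentile. Control array 2 is lowest and PMSG array 3 highest for Aqp7 and for the adipocyte sum; the epithelial sum is 15.8 or more on all PMSG-labelled arrays.

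The profiles most like these over the 8 arrays were found after centring each probe on its own mean, among 13807 gene names above background on every array. Closest to Aqp4 were Dydc2, Zmynd12 and Tsnaxip1, with root mean square differences of 0.18, 0.19 and 0.21 on the log2 scale. Closest to Aqp5 were Agtr1b, a receptor for angiotensin II, Slc26a4, an anion exchanger, and Upk3bl, at 0.42, 0.49 and 0.51. The list is a description and carries no test, since many probes share the difference between the labels.

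Aqp2, the channel that vasopressin sends to the surface of kidney collecting duct cells, was the steadiest aquaporin under control. Its levels there were -0.51, -0.59, -0.45 and -0.55, an SD of 0.057, and under PMSG they were -1.16, -1.56, -0.96 and -1.50. The groups did not overlap, and the difference was -0.77 (SE 0.15, 95% interval -1.11 to -0.44, limma adjusted p = 0.00472; chromosome 7, 138330832 to 138330891). Aqp8, which passes water and also ammonia and hydrogen peroxide, stood at -1.26, -0.71, -1.03 and -1.19 under control and at -1.57, -1.94, -1.51 and -1.77 under PMSG. All 4 PMSG-labelled arrays were lower, with a difference of -0.65 (SE 0.15, 95% interval -1.01 to -0.30, limma adjusted p = 0.0127; chromosome 1, 182335905 to 182335964).

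Aqp2, Aqp3, Aqp8 and Aqp9 were lower together with part of the steroid-producing cell markers. Of 5 theca cell markers, 3 fell (Star, Cyp11a1 and Lhcgr, which granulosa and luteal cells also express). Insl3, a hormone of theca cells, rose by 2.60 (limma adjusted p = 3.47e-04). Cyp17a1 had a difference of -0.22 that did not pass (limma adjusted p = 0.483). The summed signal was 150.4 to 174 under control and 30.7 to 70.8 under PMSG. Cyp11a1 had the highest mean level of the 5 under control, 6.59, so it weighs most in the sum there. For granulosa cells, 3 of 7 markers fell and 1 rose, with sums of 105.6 to 169 and 86.7 to 112. Among all tested probes 17.6% rose and 16.6% fell. The part of theca and granulosa cells in the decreases was not tested.

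Aqp1, the water channel of red blood cells and of endothelium, did not pass. It stood at -0.64, -0.71, -0.19 and -1.09 under control and at -0.34, -0.43, -0.079 and 0.22 under PMSG, and the groups overlapped through control array 3. The difference was 0.50 (SE 0.22, 95% interval -0.0016 to 1.00, limma adjusted p = 0.111; chromosome 4, 84110125 to 84110184). Without control array 3 it was 0.65 and passed (limma adjusted p = 0.0450). Spots within an array varied by a median SD of 0.043 over up to 10 spots, far less than the SD between arrays of 0.37 under control and 0.30 under PMSG, so the spread of Aqp1 lay between arrays and not between spots.

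Markers of the cells known for Aqp1 were read beside it. Of 13 endothelial markers 2 rose and 5 fell, with summed signals of 28.4 to 36.9 under control and 28.1 to 31.9 under PMSG. Of 8 red blood cell markers tested, 0 rose and 1 fell, with sums of 190.3 to 239 and 151 to 221. Over all tested probes 17.6% rose and 16.6% fell. The part of these cells in the Aqp1 values was not tested.

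Aqp6, an intracellular channel of kidney intercalated cells that also passes anions, stood at -4.12, -4.45, -4.10 and -4.49 under control and at -2.98, -3.62, -2.96 and -4.92 under PMSG. PMSG arrays 1 to 3 were above all control-labelled arrays and PMSG array 4 was below them all. The difference of 0.67 (SE 0.41, 95% interval -0.27 to 1.62) did not pass (limma adjusted p = 0.233; chromosome 7, 138349934 to 138349993). Without PMSG array 4 it was 1.1 and passed (limma adjusted p = 0.00483). Mip, the lens aquaporin, which is not among the 10, had a difference of 0.62 (limma adjusted p = 0.0902), or 0.86 without that array (0.00584). Aqp12a was well above background on 0 of 8 arrays and was not tested.

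Aqp11, whose loss leads to kidney cysts in mice, was higher in arrays labelled PMSG. Its levels were -5.35, -5.75, -5.88 and -6.41 under control and -4.57, -5.19, -3.97 and -5.15 under PMSG, without overlap. The difference was 1.13 (SE 0.32, 95% interval 0.40 to 1.86, limma adjusted p = 0.0268; chromosome 1, 154974018 to 154974077). This call was the least secure of the 7. It was lost under normexp background correction, where the difference was 0.44 (0.0608), and without control array 2 (0.0548), 3 (0.0593) or 4 (0.0690) or PMSG array 1 (0.0654). Its spots disagreed by up to 1.05 (SD, log2) on 1 array.

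**Figure D4:**
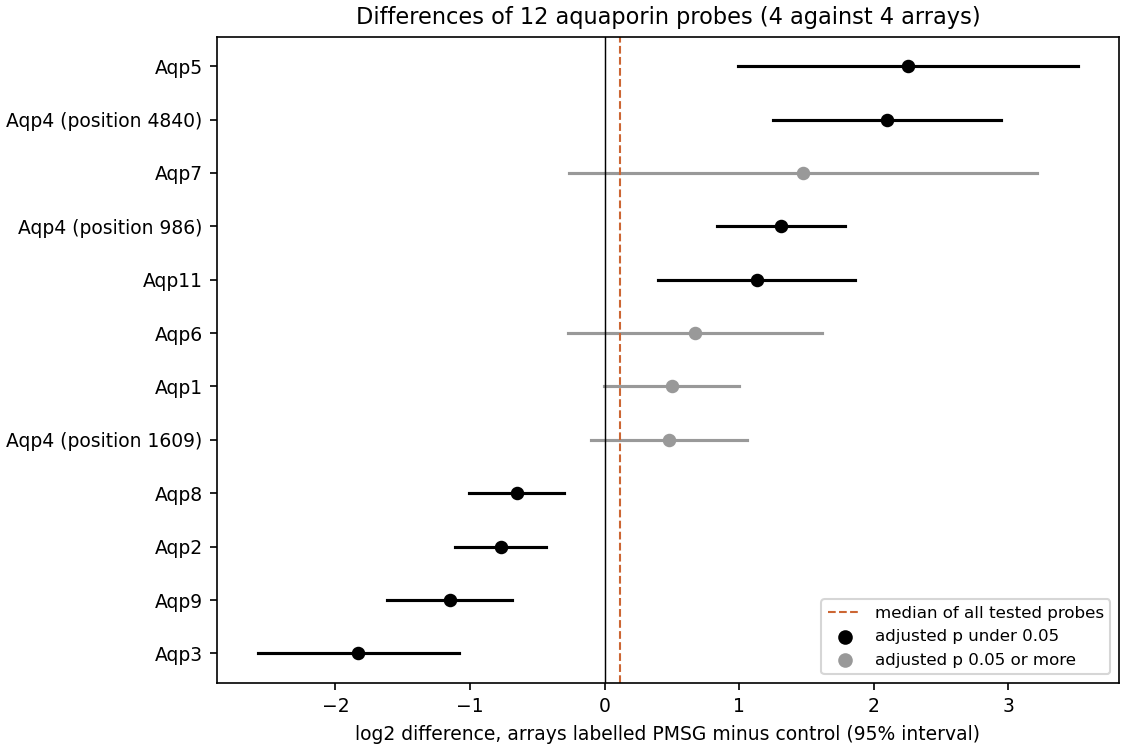
Log2 difference (arrays labelled PMSG minus control) of the 12 aquaporin probes with 95% intervals from limma, black where the adjusted p is under 0.05 and grey otherwise. The dashed line is the median of all tested probes, 0.11; 4 probes have intervals wholly above 0, and Aqp3 at -1.83 is the lowest.

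Some aquaporin genes are neighbours on a chromosome. Aqp2, Aqp5 and Aqp6 follow each other on chromosome 7 with no annotated gene between them in the RefSeq order of the GRCr8 assembly. Their probes start 10.1 kb and 8.97 kb apart on rn4. Aqp2 fell by 0.77 while Aqp5 rose by 2.25, and Aqp6 had a difference of 0.67 that did not pass. Aqp3 and Aqp7 probes start 67.9 kb apart on chromosome 5, with differences of -1.83 and 1.47, of which the second did not pass.

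Because Aqp2 and Aqp5 lie side by side and went opposite ways, their promoters are shown. Each is the 250 bases before the gene's start, on the plus strand of GRCr8, from RefSeq; 9 of the 10 aquaporins matched that promoter table. The search was for TGACG, the short core bound by cAMP-responsive factors, and AAGGTCA, the site bound by nuclear receptors such as NR5A1, on both strands. Capitals mark a match.

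Aqp2 promoter, chr7:132590036-132590285: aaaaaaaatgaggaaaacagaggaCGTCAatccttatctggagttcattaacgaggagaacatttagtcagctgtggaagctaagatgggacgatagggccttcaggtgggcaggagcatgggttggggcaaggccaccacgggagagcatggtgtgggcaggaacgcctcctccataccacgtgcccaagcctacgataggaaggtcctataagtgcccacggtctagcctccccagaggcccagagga
Aqp5 promoter, chr7:132601278-132601527: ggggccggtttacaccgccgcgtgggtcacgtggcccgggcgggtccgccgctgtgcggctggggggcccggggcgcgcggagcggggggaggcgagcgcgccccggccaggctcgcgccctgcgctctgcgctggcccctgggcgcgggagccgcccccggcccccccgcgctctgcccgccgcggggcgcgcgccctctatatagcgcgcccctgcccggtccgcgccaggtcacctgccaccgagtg

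TGACG occurred, as its reverse complement CGTCA, in the promoter of 1 of the 9 matched aquaporins, Aqp2, beginning 226 bases before the start. It occurs in 18.2% of 33469 promoters of the same length. AAGGTCA occurred in 0 of the 9 and in 3.99% of all. A match is a run of letters, not a shown binding site.

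Genes that set up or answer water movement were read as lists. In ion and urea transport, 20 of 24 genes were tested, 6 higher and 5 lower, with a median of 0.13, against shares of 17.6% higher and 16.6% lower over all tested probes. Scnn1g, an epithelial sodium channel subunit, rose by 1.72 (limma adjusted p = 7.80e-04), and Slc12a1, a sodium, potassium and chloride cotransporter, rose by 1.13 (0.00359). Under normexp these were 0.59 and 0.44 and still passed. In the tonicity and volume list, 14 of 15 were tested, 5 higher and 3 lower, with a median of 0.31, beside the same shares over all probes. Trpv4, a calcium channel opened by cell swelling, fell by 1.72 (limma adjusted p = 8.10e-05) and Slc6a6, the taurine transporter, fell by 1.45 (5.54e-04). Wnk4, a kinase that controls ion cotransporters, rose by 1.04 (0.0451), a call lost when any 1 array but PMSG array 4 was left out (0.0688 to 0.112), with slide row as a block (0.0663) and with no filter on dim probes (0.0573).

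In the list of vasopressin signalling and aquaporin anchoring, 13 of 15 genes were tested, 0 higher and 2 lower, where 34.2% of all tested probes passed in either direction. Avpr1a, a vasopressin receptor, fell by 0.62 (limma adjusted p = 0.00126). Rdx, radixin, which links membrane proteins to actin, fell by 0.35 (0.0249), a call lost with the replicate block (0.0572), under quantile normalization (0.153) and without any 1 array but PMSG arrays 2 and 4 (0.0512 to 0.0750). The Avpr1a call was lost under normexp (0.0600). The transport and anchoring medians changed sign under median centring, to -0.038 and -0.12.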

How the data were processed

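Intensity was extracted by the authors with Agilent Feature Extraction 11.5.1.1, per the file headers, with detrending and surrogates for dim spots; the deposited signals are linear, with calls per spot for background and outliers (treated as other values of 0 or 1). The authors' deposited log2 table closely followed log2 signal minus each array's 75th percentile (correlations over probes 0.9984 to 0.9996) and served as an alternative. Some dim probes had smaller differences in it: -1.53 against -1.83 for Aqp3 and 1.31 against 1.72 for Scnn1g. Columns not used numbered 0. Outlier and control spots were left out and log2 spots of a probe averaged; 17 of 30367 probes without a usable spot on some array were dropped. A probe was tested if at least 0.5 of its spots were well above background on at least 4 of 8 arrays. No spot was saturated (0). The fit used limma 3.58.1 (R 4.3.3), with Benjamini-Hochberg adjustment over 25303 probes and a threshold of 0.05; the procedure was tested on simulated data. Intervals are at 95%. The brightest probe stood for a gene. Every member was named, the 3 largest passing differences per related list (1 is not reported here), and the 3 profiles most like the 2 members with the largest differences. Members and lists were chosen with earlier results of these data known. With 4 arrays per label, array number limits precision. All arrays were on 1 slide, scanned on 1 day. Alternatives were quantile normalization, median centring, normexp, other filters, the deposited table, array weights, replicate block, slide row and each array left out; settings for genes other than the members were added after seeing the data.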

Additional observations from a re-analysis of the deposited data

How the results depend on the processing

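The number of aquaporins called, 7, was 6 to 8 under all 17 alternatives, and the number of tested probes called, 8658, was 6552 to 11382. When 1 array was left out, the aquaporin count ran from 6 to 8 and the probe count from 6552 to 11382. The direction of the 10 aquaporins, by their brightest probe, did not turn in any of 169 recomputed differences; 161 kept their side of the threshold, 5 lost it, all of Aqp11, and 3 gained it, 1 of Aqp1 and 2 of Aqp6. Array weights called Aqp6 (limma adjusted p = 0.0249). Aqp3 has no value where a probe had to be above background on all 8 arrays. The share of higher against lower calls over all probes moved with scaling, from 4452 against 4206 to 2914 against 5534 under median centring. The replicate block gave 7346 probes and 7 aquaporins. Correlations of the deviations of same-numbered arrays were 0.044, 0.036, 0.18 and -0.019. Differently numbered arrays were not set beside them, so these values cannot decide whether the numbers pair the arrays. Slide and scan day hold 1 level each and could not be blocks. Dim signal limits Aqp3, Aqp11 and the Aqp4 probe at position 986.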
